A study of Homo sapiens with 6 samples.

Results

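The AP-1 transcription factors examined here are 10 genes of the bZIP class: the Fos proteins FOS, FOSB, FOSL1 and FOSL2, the Jun proteins JUN, JUNB and JUND, and the relatives ATF3, BATF and BATF3. They were taken by name, and each was represented by its only probe set that carries a single gene symbol, so all 10 were measured among 18417 genes. The measurements come from 6 Affymetrix arrays of THP-1, an established human line grown from a monocytic leukaemia. On 3 arrays the cells were unstimulated. On the other 3 they had been differentiated towards macrophage-like cells with 200 nM PMA (phorbol myristate acetate) for 3 days, followed by 3 days of rest without it. All cells come from the same line and were kept in the same medium, and the labels do not say whether the replicates were separate cultures, so every p-value measures the spread between these arrays only.

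AP-1 is a dimer. Jun proteins pair with each other or with a Fos protein through a leucine zipper, Fos proteins need a Jun partner, and the dimer binds the TPA response element (TRE). That element is named after PMA itself, which is also called TPA. PMA stands in for diacylglycerol and activates protein kinase C, and the MAP kinase cascades below it raise FOS and JUN transcription within minutes and modify the Jun proteins. FOS, FOSB, JUN, JUNB and ATF3 are immediate-early genes, with transcripts that rise and decay quickly, whereas FOSL1 and FOSL2 respond later and lack the strong activation domain of FOS. The arrays were taken after the rest period, so the comparison asks which AP-1 transcripts stood higher or lower in the differentiated state, not how they moved just after stimulation.

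Promoter sequences of the members are shown because several of the immediate-early members moved together on 1 array, as described further on. Whether these sequences had a part in that movement was not tested. RefSeq promoter windows (GRCh38.p14, 250 bases before to 50 after a gene's start) were matched for 8 of the 10 genes, not for FOSL1 and BATF3. The windows were searched on both strands for the TRE (TGACTCA), the cyclic AMP response element CRE (TGACGTCA), its short form (TGACGT, which lies within every CRE), and the proximal and distal sites of the JUN gene (TGACATCA and TTACCTCA), through which Jun and ATF2 proteins are known to act on it. Of 35116 windows, 4.95% held the TRE, 1.85% the CRE, 7.98% the short form, 2.61% the proximal JUN sequence and 0.715% the distal JUN sequence. The 250 bases before the start of JUN, FOS and FOSB follow, written 5′ to 3′ on the strand of the gene, with matches in capitals.
JUN (chr1:58784048-58784297, minus strand): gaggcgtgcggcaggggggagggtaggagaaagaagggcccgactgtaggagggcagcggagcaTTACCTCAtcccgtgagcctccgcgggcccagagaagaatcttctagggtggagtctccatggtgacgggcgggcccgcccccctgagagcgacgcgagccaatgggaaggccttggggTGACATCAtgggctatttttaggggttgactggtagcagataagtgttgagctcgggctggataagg
FOS (chr14:75278578-75278827, plus strand): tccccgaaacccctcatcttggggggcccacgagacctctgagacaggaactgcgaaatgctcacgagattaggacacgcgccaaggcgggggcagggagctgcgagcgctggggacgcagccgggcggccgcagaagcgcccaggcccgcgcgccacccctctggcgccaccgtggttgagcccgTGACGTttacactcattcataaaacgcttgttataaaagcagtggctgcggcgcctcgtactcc
FOSB (chr19:45467746-45467995, plus strand): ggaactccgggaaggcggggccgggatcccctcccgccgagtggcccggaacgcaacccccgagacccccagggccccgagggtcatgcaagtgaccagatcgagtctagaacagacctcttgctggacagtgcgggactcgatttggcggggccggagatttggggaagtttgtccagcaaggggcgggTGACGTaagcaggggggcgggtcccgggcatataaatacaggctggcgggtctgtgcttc

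In JUN the proximal site began at base -67 and the distal site at base -186, counted from the gene's start. The short CRE form began at -64 in FOS and at -60 in FOSB. Among the other members, JUND held a full CRE at -200 and a further short form at -87, the first of 2 windows of ATF3 held the proximal JUN sequence at -123, and FOSL2 held a TRE at 5 bases past the start and a short CRE form at -66. In all, 6 of the 8 held at least 1 of the sequences and 1 held the TRE. Neither JUNB nor BATF held any of them in the window. The share of all windows with at least 1 of the sequences was not computed. The proximal and distal sites were taken from JUN itself, so the count is a description. The following stretches show the matches in JUND, ATF3 and FOSL2.
JUND (chr19:18281804-18281833, minus strand): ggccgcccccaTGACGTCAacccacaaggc
ATF3 (chr1:212565273-212565302, plus strand): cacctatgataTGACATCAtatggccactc
FOSL2 (chr2:28392851-28392879, plus strand): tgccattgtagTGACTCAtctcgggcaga

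Across the arrays, medians of the log2 signal over all probe sets lay between 6.10 and 6.25. Pairs of arrays correlated at 0.988 to 0.995 inside each group and at 0.958 to 0.968 across them. Of 10 myeloid markers 9 were measured, and all 9 lay above the median of the 18417 genes on every array. That reference is not the median over all probe sets. Their summed log2 signals were 93.07 to 95.33 unstimulated and 97.26 to 98.43 with PMA. None of 8 lymphoid, erythroid and stromal markers lay above that gene median on every array. Their group means ran from 3.68 to 6.68, with sums of 41.33 to 42.68 unstimulated and 42.29 to 42.86 with PMA. By the test given below, all 5 primary granule markers fell with PMA and 5 of 6 macrophage markers rose. Of the 9 myeloid markers, 5 rose and 2 fell (LYZ and CEBPA, log2 fold changes -2.76 and -1.77). Mean correlation within the group was 0.989 for unstimulated replicate 1 and for PMA replicate 3, and 0.991 to 0.992 for the other arrays. Unstimulated replicate 1 stood apart from the other unstimulated arrays on a small set of genes: 143 genes (0.776%) lay at least 1 log2 unit below the mean of the other 2, and 15 lay at least 1 above. JUN and FOS were among those 143, as was the monocyte marker CD14 (7.51 against 9.67 and 9.65). The myeloid markers as a list did not share this: 5 were lowest and 4 highest there among the unstimulated arrays (median deviation -0.02). The results below are given with and without unstimulated replicate 1.

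FOSL1 and JUNB were the AP-1 genes that rose in PMA-differentiated cells, and no member fell by the test over all 6 arrays. FOSL1, also known as Fra-1, rose 1.65-fold and JUNB rose 1.71-fold, while FOS, FOSB, FOSL2, JUN, JUND, ATF3, BATF and BATF3 did not pass. The test was limma, with p-values adjusted by Benjamini-Hochberg across the 18417 genes, and genes under an adjusted p of 0.05 are named called. Over all genes, 13.2% were called higher and 13.2% lower, so 2 of 10 called higher is close to the background share. The signals of the 2 groups did not overlap for 4 members (FOSL1, JUN, JUNB and BATF3), again near the 41.2% of all genes for which this held. The median log2 fold change of the 10 members was 0.11, against -0.03 over all genes. In bulk RNA, a change in the number of expressing cells and a change in RNA per cell cannot be told apart.

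**Figure D1:**
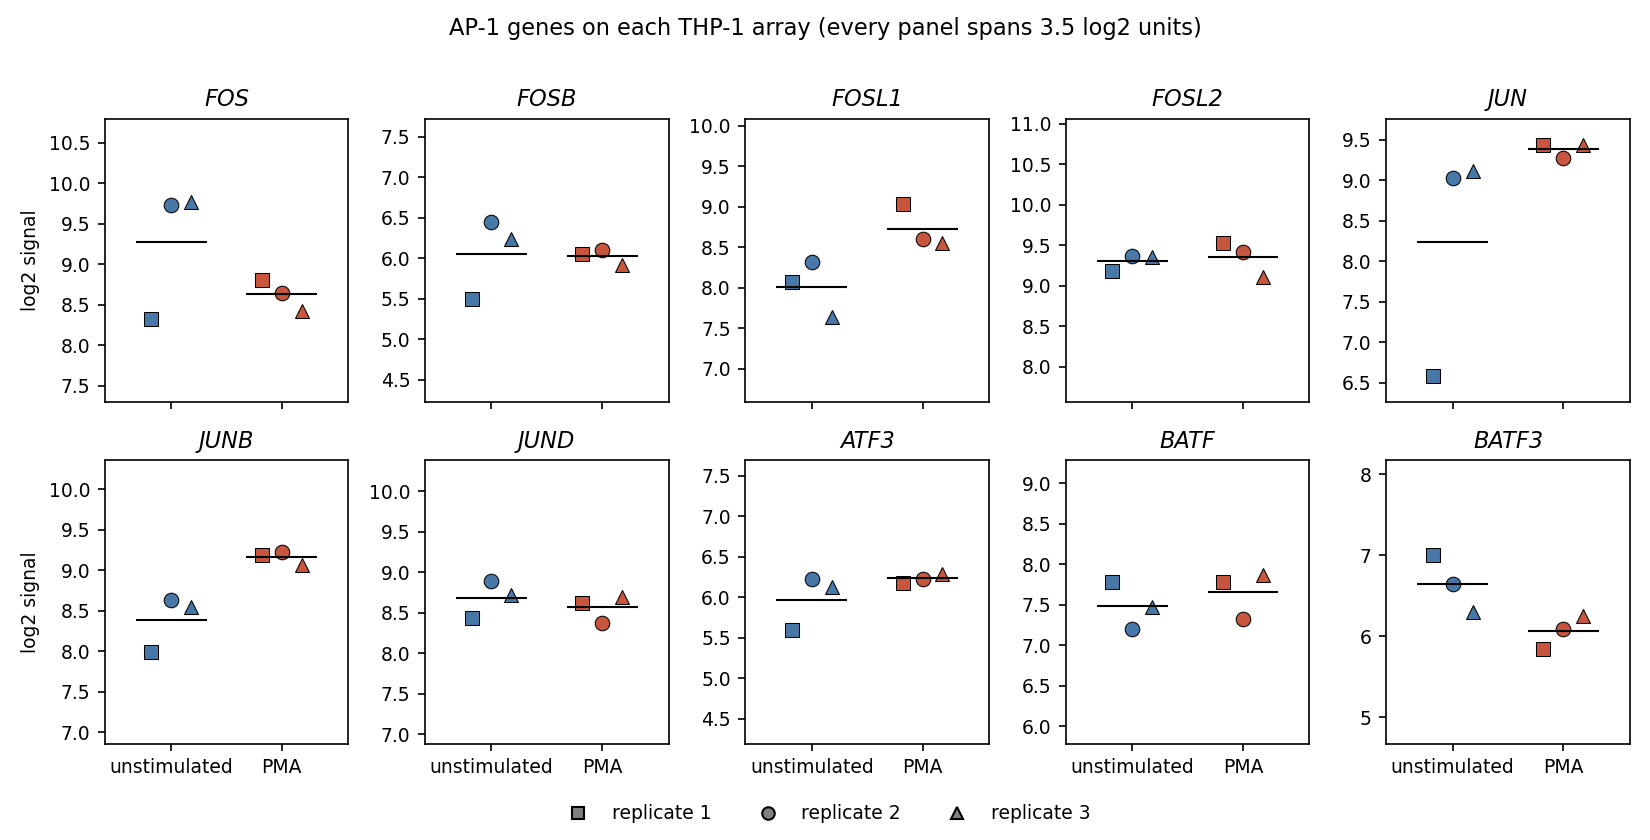
Log2 signal of the 10 AP-1 genes on each array, with unstimulated cells in blue, PMA-differentiated cells in red, and squares, circles and triangles for replicates 1, 2 and 3. The black line is the group mean, every panel spans 3.5 log2 units, and the square of unstimulated replicate 1 lies far below the other unstimulated arrays for JUN (6.58 against 9.03 and 9.11) and FOS (8.33 against 9.74 and 9.77).

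Among the Fos proteins, FOS is the founding member and the partner most often drawn into AP-1 after acute stimulation. Its log2 signal was 8.33, 9.74 and 9.77 on unstimulated replicates 1, 2 and 3, and 8.81, 8.65 and 8.42 on PMA replicates 1, 2 and 3. Unstimulated replicate 1 lay below every PMA array, and the other 2 unstimulated arrays lay about 1 unit above every PMA array. Over all 6 arrays the log2 fold change, PMA minus unstimulated, was -0.65 ± 0.36 (standard error, n = 3 per group, 95% interval -1.49 to 0.19, limma adjusted p = 0.246), which is not a call. Without unstimulated replicate 1, FOS was 2.18-fold lower, with a log2 fold change of -1.13 ± 0.13 (95% interval -1.44 to -0.82, limma adjusted p = 0.00121). In that comparison of 3 with 2 arrays 12.5% of all genes were called lower and 13.3% higher. FOS was the member called lower there and JUNB the member called higher. The array left out stood apart on FOS itself, so this FOS interval and p-value are a description and not a test. Without unstimulated replicate 2 or unstimulated replicate 3 instead, the FOS log2 fold change was -0.42 or -0.41, and neither was a call.

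FOSB, a close relative of FOS and likewise an immediate-early gene, repeated this arrangement at smaller size. It was 5.50 on unstimulated replicate 1 against 6.45 and 6.24 on the others, and 6.05, 6.10 and 5.92 on the PMA arrays. The group means were equal within their spread, 6.06 ± 0.50 and 6.03 ± 0.09 (SD, n = 3 each), and the log2 fold change was -0.04 ± 0.23 (limma adjusted p = 0.931). The sign of this small difference turned to positive under all 3 rescalings of the arrays (0.04 to 0.05). Without unstimulated replicate 1 the groups no longer overlapped, as held for 52.7% of all genes, and the log2 fold change was -0.32 ± 0.11 (limma adjusted p = 0.0804), which did not pass.

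FOSL1 moved the other way. Its transcript is itself a known AP-1 and ERK target. It was 8.07, 8.32 and 7.64 on the unstimulated arrays and 9.04, 8.60 and 8.56 on the PMA arrays. Every PMA array lay above every unstimulated array, and here unstimulated replicate 1 was between its neighbours. The log2 fold change was 0.72 ± 0.20 (95% interval 0.27 to 1.18, limma adjusted p = 0.03). The call was not steady to the number of arrays: it was lost without unstimulated replicate 1 (0.75, adjusted p = 0.0534), unstimulated replicate 3 (0.54, 0.0845), PMA replicate 1 (0.57, 0.104) or PMA replicate 2 (0.79, 0.0529).

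FOSL2, or Fra-2, completes the Fos group. It was 9.18, 9.36 and 9.35 on the unstimulated arrays and 9.52, 9.42 and 9.10 on the PMA arrays. The PMA arrays enclosed the unstimulated ones. Its log2 fold change was 0.05 ± 0.13 (95% interval -0.25 to 0.35, limma adjusted p = 0.833), and -0.01 ± 0.14 without unstimulated replicate 1.

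Among the Jun proteins, JUN carried the largest difference in means and the largest spread. JUN is the strongest activator of the Jun group and binds its own promoter. It was 6.58, 9.03 and 9.11 on the unstimulated arrays and 9.44, 9.28 and 9.43 on the PMA arrays. The PMA arrays lay close together and all exceeded the unstimulated ones, among which replicate 1 stood far below the others. The log2 fold change was 1.14 ± 0.60 (95% interval -0.26 to 2.54, limma adjusted p = 0.225). Without unstimulated replicate 1 it was 0.31 ± 0.10 (95% interval 0.07 to 0.55, limma adjusted p = 0.0634), a 1.24-fold difference in place of 2.20-fold, and neither value passed.

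JUNB, which can replace JUN in dimers and activates many TRE targets more weakly, was the steadiest of the called members. It was 7.99, 8.63 and 8.55 on the unstimulated arrays and 9.19, 9.23 and 9.07 on the PMA arrays. The groups were separate with or without unstimulated replicate 1, although that array was the lowest of its group. The log2 fold change was 0.77 ± 0.17 (95% interval 0.38 to 1.16, limma adjusted p = 0.0117) over all arrays and 0.57 ± 0.10 (limma adjusted p = 0.00619) without unstimulated replicate 1. JUNB kept its call with any single array left out, and lost it in the gene-wise test without shared variance (adjusted p = 0.0858).

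JUND, the Jun protein that most cells make without stimulation, overlapped between the groups. It was 8.44, 8.89 and 8.72 on the unstimulated arrays and 8.62, 8.38 and 8.69 on the PMA arrays. Its log2 fold change was -0.12 ± 0.14 (95% interval -0.45 to 0.21, limma adjusted p = 0.623). Without unstimulated replicate 1 the groups no longer overlapped, and the value was -0.24 ± 0.13 (limma adjusted p = 0.223), again not a call.

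ATF3 is a stress-induced bZIP protein that represses transcription as a homodimer and can activate with Jun partners. In mean signal over the arrays, ATF3 lay below the median of the genes tested. It was 5.59, 6.22 and 6.12 on the unstimulated arrays and 6.17, 6.22 and 6.29 on the PMA arrays. Outside unstimulated replicate 1, the arrays of both groups lay together. The log2 fold change was 0.25 ± 0.16 (limma adjusted p = 0.329) over all arrays and 0.06 ± 0.10 (adjusted p = 0.728) without that array.

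BATF and BATF3 are short bZIP proteins that pair with Jun and work beside IRF4 or IRF8 at composite sites, and BATF3 with IRF8 directs one class of dendritic cells. BATF overlapped fully, with 7.78, 7.20 and 7.47 on the unstimulated arrays and 7.78, 7.33 and 7.87 on the PMA arrays (log2 fold change 0.17 ± 0.19, limma adjusted p = 0.575). BATF3 was 7.0, 6.65 and 6.30 on the unstimulated arrays and 5.85, 6.09 and 6.25 on the PMA arrays. Every PMA array of BATF3 lay below every unstimulated one, with the nearest arrays only 0.05 apart. Its log2 fold change was -0.58 ± 0.19 (95% interval -1.02 to -0.15, limma adjusted p = 0.0541), just short of the threshold. For both BATF genes unstimulated replicate 1 was the highest of its group, opposite to FOS and JUN. BATF3 passed without unstimulated replicate 3 (-0.76, adjusted p = 0.0235) and without PMA replicate 3 (-0.68, adjusted p = 0.0382), and was -0.41 (limma adjusted p = 0.11) without unstimulated replicate 1. With both unstimulated replicate 1 and PMA replicate 3 left out, the limma calls among the members were FOS (-1.03), BATF3 (-0.50), FOSL1 (0.84) and JUNB (0.62). These arrays had the lowest quality weights (0.448 and 0.555), and leaving them out lowers the spread on which such calls rest. The share of all genes called in that fit was not computed, so these calls are a description.

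**Figure D2:**
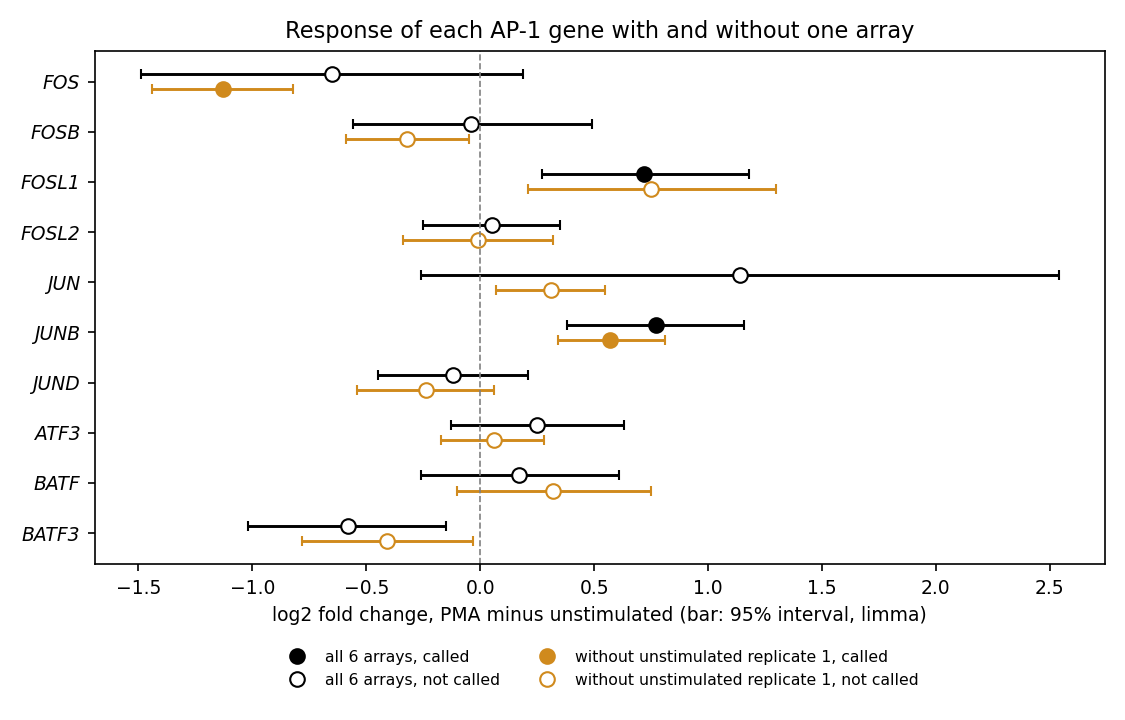
Log2 fold change of each AP-1 gene, PMA minus unstimulated, with its 95% interval from limma, over all 6 arrays (black) and without unstimulated replicate 1 (orange), where filled points are called and open points are not. JUNB is called in both, FOSL1 in the first only and FOS in the second only, and the interval of JUN shrinks from -0.26 to 2.54 down to 0.07 to 0.55. The array left out stood apart on FOS and JUN themselves, so their orange intervals are a description.

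The per-array log2 difference between 2 members was compared between the groups for 7 pairs, with exact two-sided permutation tests adjusted over the 7, and 3 arrays against 3 cannot give a p below 0.1. FOSL1 relative to FOS was -0.26, -1.41 and -2.13 on the unstimulated arrays and 0.23, -0.05 and 0.14 on the PMA arrays. The groups did not overlap, and the difference of their means was 1.38 (exact p = 0.1, adjusted p = 0.14). It was 1.88 without unstimulated replicate 1. FOSB relative to FOS also separated the groups, by 0.61 (exact p = 0.1, adjusted p = 0.14), as did BATF3 relative to BATF, by -0.76 (exact p = 0.1, adjusted p = 0.14). JUND relative to JUN differed by -1.26 and ATF3 relative to JUN by -0.89 (exact p = 0.1 and adjusted p = 0.14 for each), and these shrank to -0.55 and -0.25 without unstimulated replicate 1. FOSL2 relative to FOS (0.70, exact p = 0.4, adjusted p = 0.467) and JUNB relative to JUN (-0.37, exact p = 1, adjusted p = 1) overlapped between the groups over all arrays. Without unstimulated replicate 1, JUNB relative to JUN differed by 0.26 in the opposite direction, and FOSL2 relative to FOS differed by 1.12. No pair passed an adjusted p of 0.05, which this exact test cannot reach with 3 arrays a group. No share of separated pairs over all gene pairs was computed, so the pairs are a description of these members.

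Unstimulated replicate 1 was below both other unstimulated arrays for 7 of the 10 members (FOS, FOSB, FOSL2, JUN, JUNB, JUND and ATF3), where 35.7% of all genes showed this. From the mean of the other unstimulated arrays JUN deviated there by -2.49 log2 units, the fifth lowest deviation of all genes, and FOS by -1.43. FOSB (-0.85), JUNB (-0.59) and ATF3 (-0.58) followed, then JUND (-0.37) and FOSL2 (-0.17). FOSL1 (0.09), BATF (0.45) and BATF3 (0.53) lay above. The other unstimulated arrays differed from each other by 0.21 or less for FOS, FOSB, FOSL2, JUN, JUNB, JUND and ATF3, and by 0.68 for FOSL1. The median over the 10 members was -0.47. These deviations describe the arrays and were not tested.

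Other immediate-early genes outside AP-1 were mostly low on that array too. Of 14 measured, 13 were lowest on unstimulated replicate 1 among the unstimulated arrays, with a median deviation of -0.66 against 0.01 over all genes. DUSP1, a MAP kinase phosphatase, named after its values were seen, was 5.83 there and 7.74 and 7.68 on the others, and EGR1, a zinc finger factor, was 8.14 against 9.14 and 8.84. Of these 14, 2 were called higher with PMA (SGK1, 3.32 ± 0.23, and IER3, 3.09 ± 0.41) and 2 lower (ZFP36, -1.53 ± 0.21, and NR4A2, -1.0 ± 0.23). The number lower was 5 without unstimulated replicate 1, 3 without PMA replicate 3, and 1 without unstimulated replicate 3 or PMA replicate 1, where NR4A2 lost its call. The number was also 1 with the lowest 25% of genes left out. NR4A2 (means 5.72 unstimulated and 4.72 with PMA) was among the genes that filter removed. EGR1 was -0.52 ± 0.41 (limma adjusted p = 0.426). Of 10 heat shock genes listed, 8 were measured, and HSPA1A and HSPA1B were not. Among the 8, 1 was lowest on unstimulated replicate 1, and the median deviation was 0.22. With PMA, 2 of the 8 were called higher (HSPH1, 0.80 ± 0.16, and BAG3, 0.66 ± 0.11) and 1 lower (HSPB1, -0.60 ± 0.10). For the immediate-early and heat shock counts with PMA, the share over all genes was 13.2% each way. Markers of differentiation also moved on unstimulated replicate 1: 5 of 6 macrophage markers were lowest there among the unstimulated arrays (median deviation -0.69, with ITGAX at -1.07), and 4 of 5 primary granule markers were highest (median 0.23, with PRTN3 at 0.74). ITGAX and PRTN3, like CD14 above, were named after their values were seen. The summed log2 signal of the macrophage markers was 35.84 to 39.46 on the unstimulated arrays and 58.20 to 61.79 with PMA, and that of the granule markers 53.20 to 55.03 and 31.64 to 32.50. Of the 20 genes known to hold AP-1 elements, 16 were lowest on unstimulated replicate 1, with a median deviation of -0.29. The part these movements had in the AP-1 values was not tested.

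**Figure D3:**
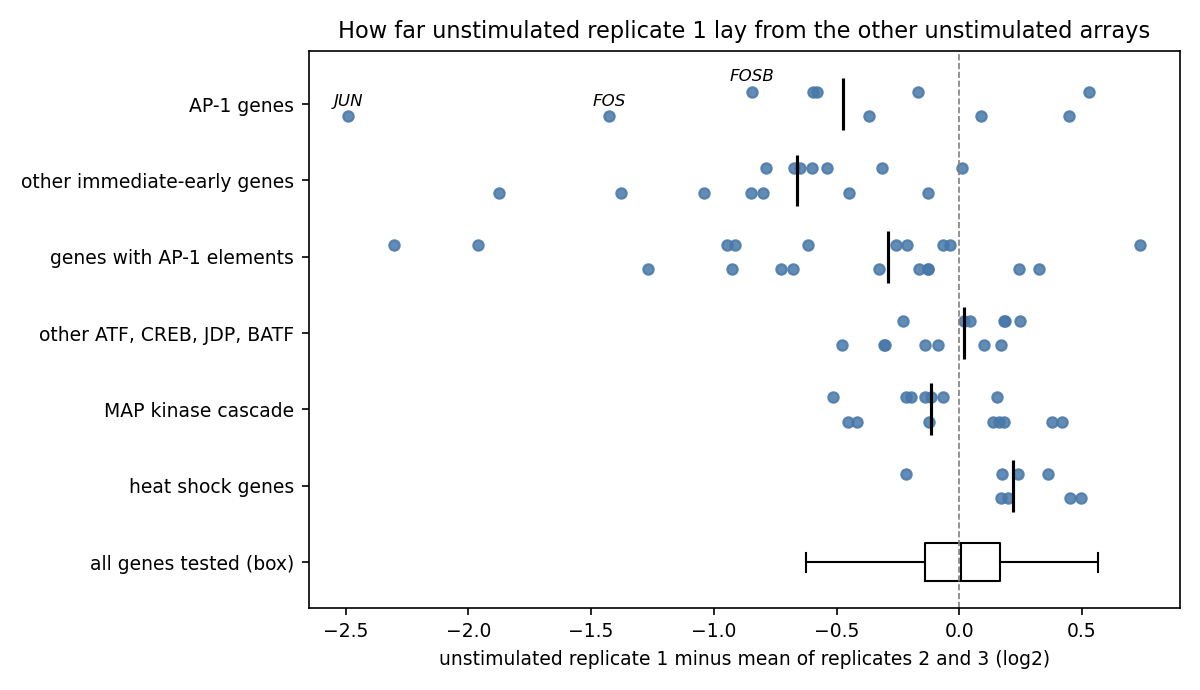
Log2 signal on unstimulated replicate 1 minus the mean of unstimulated replicates 2 and 3, with 1 point per gene, grouped by list, and a black line at each list's median. The box at the bottom shows the quartiles of all 18417 genes with whiskers that span the central 95% of genes, and JUN (-2.49) and FOS (-1.43) lie far to its left, as do several other immediate-early genes and genes with AP-1 elements, while the heat shock median is 0.22.

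Genes whose signal followed these 2 members most closely over the 6 arrays were listed by Pearson correlation, as a description with n = 6 arrays that share the same outlying array. For FOS they were TAPT1-AS1 (0.997), CECR2 (0.995) and MIR4697HG (0.992). For JUN, the member with the largest difference of means, they were ATP6V0A1 (0.992), CCNP (0.992) and SLC17A5 (0.992). Correlations over 0.95 were reached by 51 genes with FOS and by 52 with JUN.

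The kinases and factors that act on AP-1 moved in both directions. Of 15 MAP kinase cascade genes measured, 4 were called higher and 3 lower, against 13.2% of all genes each way. The list's median log2 fold change was 0.18. Higher were the ERK-activating kinase MAP2K1 (1.0 ± 0.11) and the p38-activating kinase MAP2K3 (0.64 ± 0.12). The JNK-activating kinase MAP2K4 (0.45 ± 0.10) and MAP3K5 (0.42 ± 0.12) were higher too. Lower were MAP3K1, which activates the JNK branch (-1.20 ± 0.19), the p38-activating kinase MAP2K6 (-1.0 ± 0.14) and ARAF (-0.57 ± 0.14). MAPK8, which encodes the kinase JNK1, was 0.18 ± 0.17 (limma adjusted p = 0.512). The call of MAP3K5 was lost without unstimulated replicate 1, unstimulated replicate 2, PMA replicate 2 or PMA replicate 3, that of MAP2K4 without PMA replicate 1 and that of ARAF without PMA replicate 2. Median centring also ended the call of ARAF (-0.48, limma adjusted p = 0.0584), and array quality weights that of MAP3K5 (0.32, limma adjusted p = 0.0665). MAPK8 passed without PMA replicate 3 (0.37, adjusted p = 0.0454), when 6 of the list were higher.

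Serum response factor and its partners drive FOS and other immediate-early genes from their promoters. Of 5 measured, 3 were called higher, against 13.2% of all genes. They were the SRF coactivator MRTFB (0.59 ± 0.16) and the ternary complex factors ELK3 (0.53 ± 0.09) and ELK1 (0.37 ± 0.10). SRF itself was -0.08 ± 0.10 (limma adjusted p = 0.657), with a sign that turned when arrays were centred on their medians (0.01). ELK3 was the gene that kept its call with each array left out in turn. MRTFB and ELK1 each kept theirs without PMA replicate 3 and lost it without any other single array.

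Of 5 genes for the turnover of Fos and Jun proteins, 3 were called lower and none higher, against 13.2% of all genes each way. DET1, which joins COP1 in a ubiquitin ligase that targets JUN, fell by 0.98 ± 0.11, and COP1 (-0.46 ± 0.12) and the ligase subunit FBXW7 (-0.46 ± 0.14) were also called. Both COP1 and FBXW7 lost their call without unstimulated replicate 2, unstimulated replicate 3, PMA replicate 1 or PMA replicate 2, which left DET1. Rescaling ended calls too: median centring and cyclic loess gave adjusted p of 0.0512 and 0.056 for COP1 and of 0.0759 and 0.0916 for FBXW7 with limma, and repeated quantile normalization gave 0.0657 for FBXW7.

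Of the BATF partners, IRF8, a monocyte and dendritic cell factor, went from 11.73 ± 0.15 to 8.30 ± 0.27 (SD, n = 3 each), a log2 fold change of -3.43 ± 0.15 (limma adjusted p = 7.73e-06). IRF4 was 4.84 ± 0.12 and 4.68 ± 0.09 (limma adjusted p = 0.313). These means lay close to the arrays' lower quartiles over all probe sets, 4.46 to 4.57. Those are not quartiles of the genes tested, among which IRF4, like NR4A2, fell in the lowest share that a filter removed. Among 13 other genes of the ATF, CREB, JDP and BATF families, 2 were called higher and 1 lower, against 13.2% of all genes each way. CREB3, an ER membrane factor released by proteolysis, rose by 1.5 ± 0.13, the ER stress factor ATF6 by 0.38 ± 0.09, and CREB1, the main CRE-binding factor, fell by 0.37 ± 0.09. JDP2, a repressor that binds Jun, was 0.19 ± 0.17 (limma adjusted p = 0.487) and BATF2 was -0.23 ± 0.11 (limma adjusted p = 0.183). Without unstimulated replicate 1, 3 of these 13 were lower. The call of ATF6 was lost without unstimulated replicate 2, unstimulated replicate 3, PMA replicate 1 or PMA replicate 2, and that of CREB1 without unstimulated replicate 3 or PMA replicate 1. Centring arrays on their medians also ended the call of CREB1 (-0.29, limma adjusted p = 0.0626).

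Genes known to hold AP-1 elements were mostly higher in the differentiated cells. Of 20 measured, 16 were called higher and none lower, against 13.2% of all genes each way. The median log2 fold change was 2.25, against -0.03 over all genes. The list was chosen with earlier results of these data known, so the count is a description and not a test. The count was also 16 without unstimulated replicate 1, with a median of 2.04, and it was 15 to 17 with any single array left out, with 1 called lower without PMA replicate 2. The collagenase MMP1 (7.01 ± 0.18), the cytokine IL1B (6.58 ± 0.31), the gelatinase MMP9 (5.09 ± 0.34) and the adhesion receptor ICAM1 (4.22 ± 0.29) had the largest values, and the urokinase receptor PLAUR (2.50 ± 0.21) and urokinase PLAU (2.22 ± 0.35) rose as well. CXCL8, IL6, MT2A and GCLM did not pass. CXCL8, named after its values were seen because its promoter holds a TRE, was 7.52, 9.46 and 9.51 on the unstimulated arrays and 11.03, 12.04 and 9.43 on the PMA arrays (limma adjusted p = 0.0831). Many of these genes respond to other factors too, and the part AP-1 had in their change was not tested.

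RefSeq windows were matched for 13 of those 20 genes, and 3 held the TRE: CXCL8, MT2A and PLAUR. The TRE began at base -137 in CXCL8, -104 in MT2A and -186 in PLAUR, where it lay on the opposite strand. The stretches around it are shown because these are the listed genes with the element in the window. PLAUR was called higher, and MT2A, a metallothionein with near-identical relatives that its probes may not separate, was -0.63 ± 0.25 (limma adjusted p = 0.116).
CXCL8 (chr4:73740421-73740449, plus strand): aggaagtgtgaTGACTCAggtttgccctg
MT2A (chr16:56608469-56608497, plus strand): ggagccgcaagTGACTCAgcgcggggcgt
PLAUR (chr19:43670338-43670366, minus strand): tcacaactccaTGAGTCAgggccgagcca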

How the data were processed

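Biotin-labelled total RNA from 6 THP-1 samples was read on single-channel Affymetrix arrays. The authors' deposited table holds 1 log2 value per probe set and array. RMA and Partek are named, per the submitters' processing notes, without versions. RMA compresses differences near background. Of 33297 probe sets, 19460 carried a single symbol in the platform annotation, and 19429 of these were found by gene ID in the GRCh38.p14 gene table. The probe set with the highest mean over the 6 arrays stood for a gene, which gave 18417 genes, and no dim gene was removed.

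Groups follow the sample titles. The log2 signals were fitted in R 4.3.3 with limma 3.58.1 (a group term alone, 7.71 degrees of freedom in total), and p-values were adjusted by Benjamini-Hochberg across all genes. The median standard error was 0.115. The code was tested on simulated data. The members and the 8 other gene lists were chosen with earlier results of these data known. The text names every member, up to 4 called genes per list and direction, 11 genes whatever their values, and the 3 genes most correlated with FOS and JUN. Alternatives covered normalization, dim genes, probe set choice, variance models, thresholds, a replicate block and leaving out arrays. Figures were drawn with matplotlib 3.10.9.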

Additional observations from a re-analysis of the deposited data

How the results depend on the processing

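JUNB was called in 16 of 17 alternatives and FOSL1 in 12 of 17, both higher throughout. The 2 members called higher became 0 in the gene-wise test without shared variance, 0 at an adjusted p of 0.01 and 0 with a 2-fold change required, and 1 to 2 with each array left out. The 0 called lower became 1 with the lowest 25% of genes left out (BATF3), 1 with trend and robust (BATF3), 2 with array quality weights (FOS and BATF3), 2 with both unstimulated replicate 1 and PMA replicate 3 left out (FOS and BATF3), and 0 to 1 with each array left out. Over all 6 arrays BATF3 was the only member below 0 with an unadjusted limma p under 0.05 (0.0146). FOS was called in 3 of 17 alternatives and BATF3 in 6 of 16. JUN was called in none of 17, with log2 fold changes from 0.29 to 1.57. Among the members and the 11 genes named whatever their values, signs turned for 4, none of them called. FOSB was 0.04 with quantile normalization repeated, 0.05 with median centring, 0.05 with cyclic loess, and -0.32 to 0.16 with each array left out. FOSL2 ran from -0.04 to 0.17 with each array left out. JDP2 was -0.09 and SRF 0.01 with both arrays left out, and SRF was 0.01 with median centring. The gene-wise test also ended the calls of MAP3K5, ARAF, MRTFB, ELK1, COP1, FBXW7, NR4A2, HSPH1 and PLAU. Same-numbered arrays deviated from their group means with correlations of 0.177, -0.0217 and 0.0463, so the numbers were not taken as pairs. With the replicate block, 2 members were higher and 0 lower, and the 3 same-numbered differences had 1 sign in 5 of 7 pairs of members. The 5 pairs of members whose groups did not overlap were 4 to 7 under the other alternatives. FOSB, ATF3 and BATF3 have no value with genes below the median left out. With 3 arrays per group, and single probe sets per member, changes smaller than the intervals given could not be resolved.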
